A study of Homo sapiens with 6 samples.

Results

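The genes described here encode the heterogeneous nuclear ribonucleoproteins (hnRNPs), the SR proteins and a few related splicing regulators. They were taken by gene symbol: HNRNP names that are not pseudogenes, SRSF names, TRA2A and TRA2B, RBM3, RBM5, RBM10, RBM25 and RBM39, and PTBP1, PTBP2 and PTBP3. The deposited table holds 42 such genes among 22925, of which 22 are hnRNP genes, 10 are SR protein genes and 10 are TRA2, RBM and PTBP genes. Poly(A) RNA was sequenced from HT-1080, a human fibrosarcoma cell line. In 3 libraries the cells had received 20 μM PhenDC3 in 1% DMSO for 48 h, and in the other 3 they had received 1% DMSO alone for 48 h. PhenDC3 is a synthetic ligand of G quadruplexes, folds of stacked guanines found in DNA and RNA. The comparison asks how the level of each transcript, relative to the others, differs when the ligand is present.

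Before an intron is removed, nascent RNA is coated by proteins that decide which splice sites are used. SR proteins carry an RNA-binding domain and a tail rich in arginine and serine, and they mostly promote the use of nearby exons. hnRNPs often act the other way by masking sites, although both classes can do either depending on where they bind. Several hnRNPs, among them those of the A and H/F groups, are known to bind runs of G or folded G quadruplexes. Many genes of both classes limit their own output by splicing in an exon that sends the transcript to nonsense-mediated decay.

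The PhenDC3 libraries held 7371056 to 9386691 reads and the DMSO libraries 12574952 to 14292987. A normalized count below is a gene's reads divided by the authors' size factor for that library. RNA of the mitochondrial genome made up 15.4% ± 0.053 of reads in PhenDC3 cells and 3.87% ± 0.14 in DMSO cells (SD, n = 3 each), and the part of this shift in the results was not tested. DMSO replicate 3 stood furthest from the libraries of its own group, and its chi-square over reads, divided by the degrees of freedom, was 6.99 and 6.47 against the other DMSO libraries, where every other pair within a group gave 1.4 to 2.5. Without it, 18 hnRNP genes and 9 SR protein genes were called, against 18 and 10 with all libraries. In bulk RNA, fewer cells with a transcript and less of it per cell cannot be told apart. The mesenchymal markers VIM, FN1, CD44 and SPARC were abundant in both groups, and all of them passed as lower in PhenDC3 cells. COL1A1 (1.54-fold) and COL5A1 (1.54-fold) passed as higher, so that the list was divided, 4 lower and 2 higher. THY1 and COL1A2 were too low to be tested, and the 8 markers summed to 41143 to 41691 normalized counts in PhenDC3 and 56970 to 60605 in DMSO libraries. Of markers listed for other cell types, 3 of 5 epithelial, 2 of 4 blood, 2 of 3 endothelial and 1 of 3 neural ones were not analysed here. CLDN4, an epithelial marker, was not called, at 68.5 in PhenDC3 and 66.8 in DMSO cells. The sum of 2 epithelial markers, CLDN4 and ELF3, was 74.8 to 83.4 in PhenDC3 and 59.3 to 72.4 in DMSO libraries. That of 2 blood markers was 9.18 to 19.4 in PhenDC3 and 4.64 to 10.1 in DMSO libraries, and that of 2 neural markers 19.7 to 43.2 in PhenDC3 and 6.23 to 9.65 in DMSO libraries. EGFL7, an endothelial marker, was at 235 to 316 in PhenDC3 and 226 to 302 in DMSO libraries. ELF3, CD68 and SYT1 passed as higher in PhenDC3 cells. The part of any of these markers in the results was not tested.

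Most hnRNP and SR protein transcripts were lower in PhenDC3 cells, and a minority were higher. Of 21 hnRNP genes tested, 14 fell and 4 rose, and 3 did not pass (limma, adjusted p under 0.05). All 10 SR protein genes passed, 7 of them lower and 3 higher. The TRA2, RBM and PTBP genes were divided, with 3 lower, 3 higher and 4 that did not pass, and held the largest change of all 42 genes, a 2.62-fold rise of TRA2A. These counts stand against a high background, since 59.6% of all 16482 genes tested were called, 29.2% higher and 30.4% lower. Among the 3925 protein-coding genes at least as abundant as HNRNPLL, 74.1% were called, 35.6% higher and 38.4% lower. The median log2 fold change was -0.33 over the tested hnRNP genes and -0.33 over the SR protein genes, against -0.02 over all genes tested and -0.01 over those abundant coding genes. The changes were moderate in size. Those of 1.5-fold or more numbered 7 falls and 2 rises among hnRNP genes, 2 falls among SR protein genes, and TRA2A alone in the third set, where 15.7% of all genes fell and 17.3% rose by as much. In 34 of the 41 tested members every PhenDC3 value lay on one side of every DMSO value, against 64.1% of all genes tested and 77.2% of the abundant coding genes. In the authors' deposited table the members with an adjusted p under 0.05 were 18 hnRNP genes, 9 SR protein genes and 6 of the third set, where 39% of its genes with a value passed. HNRNPCL1, a retrogene of HNRNPC, was too low to be tested, at 1.18, 2.98 and 0 normalized counts in PhenDC3 and 2.33, 1.55 and 2.07 in DMSO libraries. When libraries were scaled by their total reads in place of the size factor, 16 hnRNP genes were lower and 3 higher, and 7 SR protein genes were lower and none higher. That scaling lowered the median of all genes tested to -0.18.

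**Figure D1:**
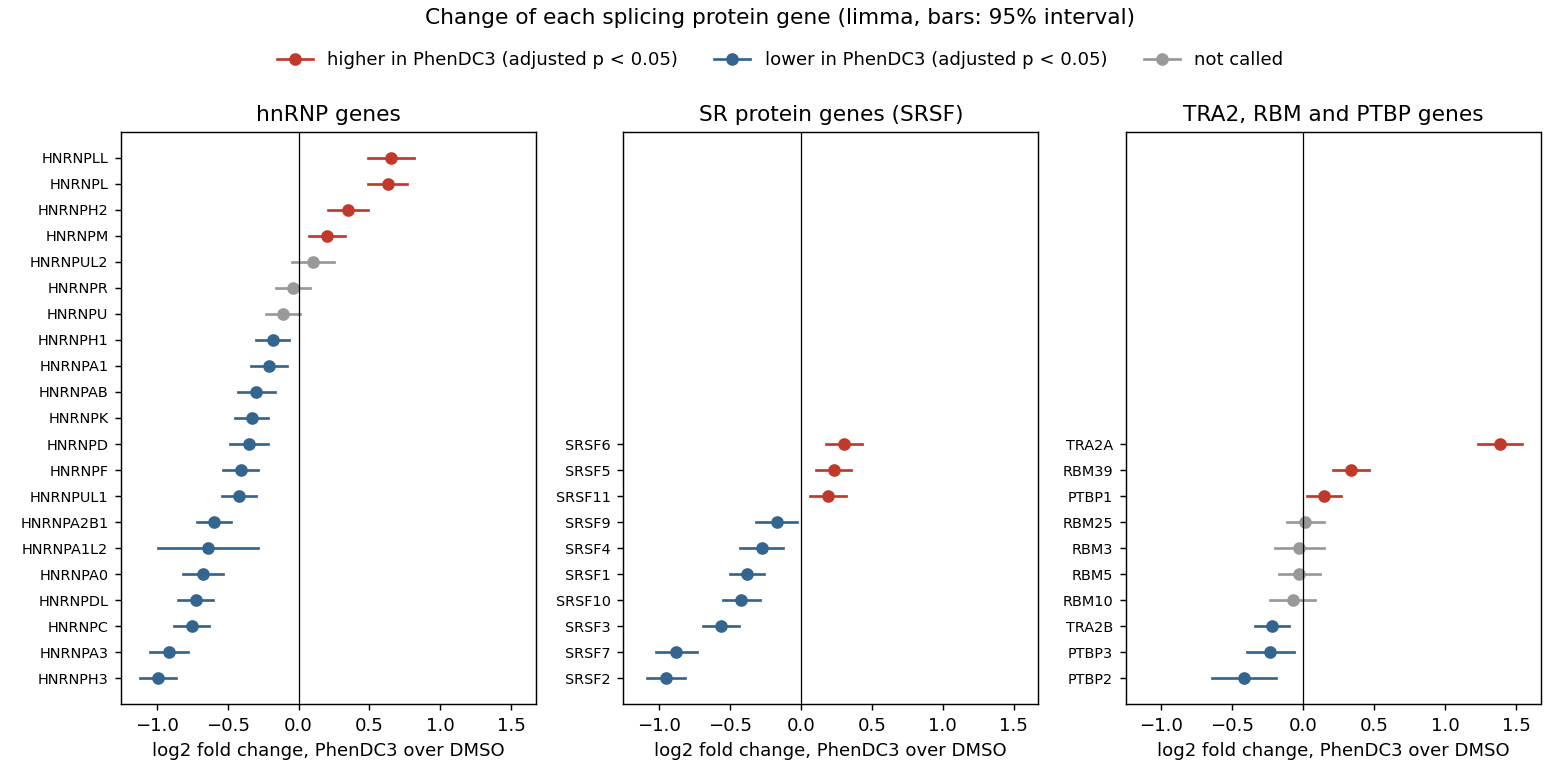
Log2 fold change of PhenDC3 over DMSO (x axis) for each tested gene, in 1 panel per set, with points for the estimate and bars for the 95% limma interval, red where higher, blue where lower and grey where not called. The hnRNP genes run between -0.99 for HNRNPH3 and 0.65 for HNRNPLL, the SR protein genes between -0.95 for SRSF2 and 0.30 for SRSF6, and TRA2A stands at 1.39.

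As the ligand recognizes G quadruplexes, promoter windows of the members were searched for the sequence that can form one. The motif sought was GGG or a longer run of G, 4 times, with 1 to 7 bases of any kind between runs, on either strand. Windows reach from 250 bases before to 50 after each RefSeq start (GRCh38.p14), and 38 of the 42 members had 52 windows. HNRNPA1, RBM39, SRSF2 and TRA2A were not among them. The motif was in 13 of the 52 windows (25%), in 8778 of all 35116 windows (25%) and in 33.9% of windows of the protein-coding genes tested. Among windows of members that rose it was in 3 of 11 (27.3%), and among those of members that fell in 9 of 33 (27.3%). Some genes have several windows, and counted by gene it was in 2 of 8 that rose and 8 of 22 that fell. On the gene's own strand it was in 9.09% of windows of members that rose and 24.2% of those that fell. The directions were not tested against each other. Over all protein-coding genes tested the motif was in 38.6% of windows of higher genes and 31.2% of windows of lower genes. On the gene's own strand these shares were 23.6% and 18.0%. The windows below are shown because they belong to members with large changes in their set that had a window, or to a close relative of one, on both sides of the comparison and with or without the motif. Capitals mark the bases of the motif, with runs of C where it lies on the opposite strand.
HNRNPH3 promoter window, chr10:68332563-68332862, plus strand: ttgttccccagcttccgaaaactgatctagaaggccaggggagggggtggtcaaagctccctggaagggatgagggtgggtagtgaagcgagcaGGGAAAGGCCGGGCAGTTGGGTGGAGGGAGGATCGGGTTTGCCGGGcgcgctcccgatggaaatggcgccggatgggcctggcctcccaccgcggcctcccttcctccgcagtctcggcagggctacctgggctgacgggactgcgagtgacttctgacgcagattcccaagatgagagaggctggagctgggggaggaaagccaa
HNRNPL promoter window, chr19:38852298-38852597, minus strand: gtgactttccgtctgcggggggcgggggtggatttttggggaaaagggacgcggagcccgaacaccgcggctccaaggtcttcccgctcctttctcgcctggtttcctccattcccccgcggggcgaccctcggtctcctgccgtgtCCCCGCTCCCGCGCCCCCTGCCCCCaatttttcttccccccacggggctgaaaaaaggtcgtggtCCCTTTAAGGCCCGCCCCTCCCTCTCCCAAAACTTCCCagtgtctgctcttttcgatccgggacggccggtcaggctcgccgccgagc
HNRNPLL promoter window, chr2:38602879-38603178, minus strand: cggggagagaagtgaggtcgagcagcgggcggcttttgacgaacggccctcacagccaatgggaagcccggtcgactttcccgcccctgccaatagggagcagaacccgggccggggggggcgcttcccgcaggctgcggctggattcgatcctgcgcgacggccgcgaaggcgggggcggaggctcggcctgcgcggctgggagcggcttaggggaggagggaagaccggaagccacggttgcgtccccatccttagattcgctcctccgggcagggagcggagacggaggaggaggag
SRSF7 promoter window, chr2:38751312-38751611, minus strand: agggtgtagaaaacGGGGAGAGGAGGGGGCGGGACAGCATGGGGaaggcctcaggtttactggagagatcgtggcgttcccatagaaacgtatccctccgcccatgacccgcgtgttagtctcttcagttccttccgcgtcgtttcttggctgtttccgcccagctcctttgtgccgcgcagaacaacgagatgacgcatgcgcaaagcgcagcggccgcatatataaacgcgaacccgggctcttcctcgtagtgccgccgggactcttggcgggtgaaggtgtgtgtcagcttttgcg
SRSF6 promoter window, chr20:43457646-43457945, plus strand: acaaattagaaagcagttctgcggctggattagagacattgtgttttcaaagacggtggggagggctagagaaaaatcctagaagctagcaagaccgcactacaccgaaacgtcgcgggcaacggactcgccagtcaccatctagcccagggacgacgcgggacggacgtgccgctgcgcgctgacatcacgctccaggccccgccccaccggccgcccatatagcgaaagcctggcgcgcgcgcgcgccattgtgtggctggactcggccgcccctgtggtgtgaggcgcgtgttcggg
PTBP2 promoter window, chr1:96722388-96722687, plus strand: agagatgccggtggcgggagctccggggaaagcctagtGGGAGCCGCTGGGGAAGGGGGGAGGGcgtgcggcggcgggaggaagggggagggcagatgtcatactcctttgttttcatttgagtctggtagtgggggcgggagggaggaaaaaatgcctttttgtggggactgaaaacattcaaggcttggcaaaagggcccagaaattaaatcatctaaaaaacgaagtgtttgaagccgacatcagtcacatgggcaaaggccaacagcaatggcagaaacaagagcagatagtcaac
HNRNPH3, SRSF7 and PTBP2, all lower in PhenDC3 cells, hold the motif on the gene's own strand. The window shown for HNRNPH3 is the only one of its 3 with the motif, and the 2 windows of SRSF7 overlap. HNRNPL rose and has the motif in both of its windows. In the window shown it lies on the opposite strand over 63 bases, and in the other on the gene's own strand. The windows of HNRNPLL and SRSF6, which also rose, hold none. Nor do those of HNRNPA3, HNRNPC, HNRNPA0 and HNRNPA2B1, which fell and are not shown. The windows shown were picked by hand and do not stand for all members of either direction. A match is a description of these letters and was not tested for folding or binding.

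Among hnRNP genes the largest fall was that of HNRNPH3, of the H/F group, close to that of HNRNPA3 (log2 fold change -0.91). HNRNPH3 (ENSG00000096746, chromosome 10) had 1459, 1578 and 1563 normalized counts in the PhenDC3 libraries, against 2950.4, 3072 and 3115 in the DMSO libraries. Every PhenDC3 library was at about the same low level, and the mean was 0.503 of that in DMSO cells (limma, log2 fold change -0.99, SE 0.06, adjusted p = 3.5e-11). HNRNPF, a relative that binds G runs near splice sites and poly(A) sites, had 2445, 2567 and 2576 normalized counts in the PhenDC3 libraries, against 3241, 3344 and 3477 in the DMSO libraries, and fell to 0.754 (adjusted p = 6.44e-06). HNRNPH1, the most abundant of the group, had 4837, 4889 and 4792 normalized counts in the PhenDC3 libraries, against 5382, 5620.04 and 5476 in the DMSO libraries. Its fall was small, to 0.881 (adjusted p = 0.00809), and did not pass without PhenDC3 replicate 3 (adjusted p = 0.0545). HNRNPH2, whose gene lies on the X chromosome, went up, with 1237, 1268 and 1326 normalized counts in the PhenDC3 libraries, against 939, 1029.98 and 1036 in the DMSO libraries. It rose 1.28-fold (log2 fold change 0.35, SE 0.07, adjusted p = 0.000165). The members of this group thus moved to different degrees and in both directions.

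The A group, which includes the exon repressor hnRNP A1, fell throughout. HNRNPA2B1 (ENSG00000122566, chromosome 7), the most abundant of the 42 genes, had 11367, 12297 and 11902 normalized counts in the PhenDC3 libraries, against 17269.8, 18240.4 and 18281 in the DMSO libraries. No DMSO library came near the PhenDC3 range, and the level fell to 0.661 (limma, log2 fold change -0.60, SE 0.06, adjusted p = 2.29e-08). HNRNPA3 had 1341, 1496 and 1407 normalized counts in the PhenDC3 libraries, against 2621, 2583 and 2793 in the DMSO libraries, a fall to 0.531 (log2 fold change -0.91, SE 0.06, adjusted p = 2.27e-10). HNRNPA1 fell least, with 2582, 2665 and 2652 normalized counts in the PhenDC3 libraries, against 3039, 2887 and 3219.6 in the DMSO libraries, or 0.864 of the DMSO mean (adjusted p = 0.00569). HNRNPA0, an intronless gene whose product binds AU-rich RNA, fell to 0.626. HNRNPA1L2, a retrogene of HNRNPA1, averaged 40.4 ± 5.54 in PhenDC3 cells and 63.1 ± 2.30 in DMSO cells and fell to 0.640.

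Reads of this group may be shared with copies, and how the authors counted such reads is not known here. The 26 copies of HNRNPA1 in the table, retrogenes included, summed to 25.8% of the HNRNPA1 level in PhenDC3 cells and 27.8% in DMSO cells. For HNRNPA3 the 11 copies came to 29.7% in PhenDC3 and 38.1% in DMSO cells, and HNRNPA3P6 alone had 231 ± 28.5 normalized counts in PhenDC3 cells and 599 ± 62.4 in DMSO cells. The copies of HNRNPC summed to 23.2% of its level in PhenDC3 and 25.1% in DMSO cells. Those of HNRNPK came to 19.3% in PhenDC3 and 19.9% in DMSO cells, and those of HNRNPL to 18.6% in PhenDC3 and 19.3% in DMSO cells. For the other members with copies the share was 2.93% or less. Most of the HNRNPA1 sum came from HNRNPA1L3, which has no symbol in the deposited table and is therefore not a member, at 492 ± 8.68 in PhenDC3 cells and 627 ± 77.6 in DMSO cells.

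The other abundant hnRNP genes were mostly lower. HNRNPC, whose product binds runs of U and keeps cryptic exons from being spliced in, had 2896, 3012 and 3133 normalized counts in the PhenDC3 libraries, against 4915, 5189 and 5123 in the DMSO libraries. The groups were far apart, and the level fell to 0.594 (limma, log2 fold change -0.75, SE 0.06, adjusted p = 1.03e-09). HNRNPDL had 2434, 2571 and 2404 normalized counts in the PhenDC3 libraries, against 3949.7, 4135 and 4169 in the DMSO libraries, and fell to 0.605. HNRNPD, its relative, known as the AU-rich element binding protein AUF1, fell to 0.783, HNRNPAB to 0.812, HNRNPUL1 to 0.748 and HNRNPK, which binds runs of C, to 0.796. These genes averaged 2318 normalized counts or more in PhenDC3 cells. The abundant HNRNPU, a chromatin-associated RNA-binding protein, did not pass, with a log2 fold change of -0.11 and a 95% interval of -0.23 to 0.01 (limma). The intervals were -0.16 to 0.08 for HNRNPR and -0.04 to 0.25 for HNRNPUL2, which also did not pass. When libraries were scaled by total reads, HNRNPU (log2 fold change -0.27, limma adjusted p = 0.000367) and HNRNPR (-0.21, adjusted p = 0.00442) were called lower. HNRNPUL2 was not called on that scale either.

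The 4 hnRNP genes that rose include a pair of close relatives. HNRNPL (ENSG00000104824, chromosome 19), which binds CA repeats, had 3802, 3926 and 4036 normalized counts in the PhenDC3 libraries, against 2565, 2328 and 2736 in the DMSO libraries. All PhenDC3 values lay above all DMSO values, and the mean was 1.54-fold higher (limma, log2 fold change 0.63, SE 0.07, adjusted p = 6.75e-08). HNRNPLL, known for switching exons of the CD45 transcript in lymphocytes, had 692, 804 and 749 normalized counts in the PhenDC3 libraries, against 498, 457 and 470.3 in the DMSO libraries. It rose 1.58-fold (log2 fold change 0.65, SE 0.08, adjusted p = 5.02e-07), so that the ratio between the pair differed by no more than its spread. HNRNPM, which binds GU-rich RNA, had 4509, 4384 and 4486 normalized counts in the PhenDC3 libraries, against 3744, 3707 and 4195 in the DMSO libraries. Its 1.15-fold rise passed (adjusted p = 0.00786) but not without DMSO replicate 2 (adjusted p = 0.0518) or when libraries were scaled by total reads (log2 fold change 0.04).

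**Figure D2:**
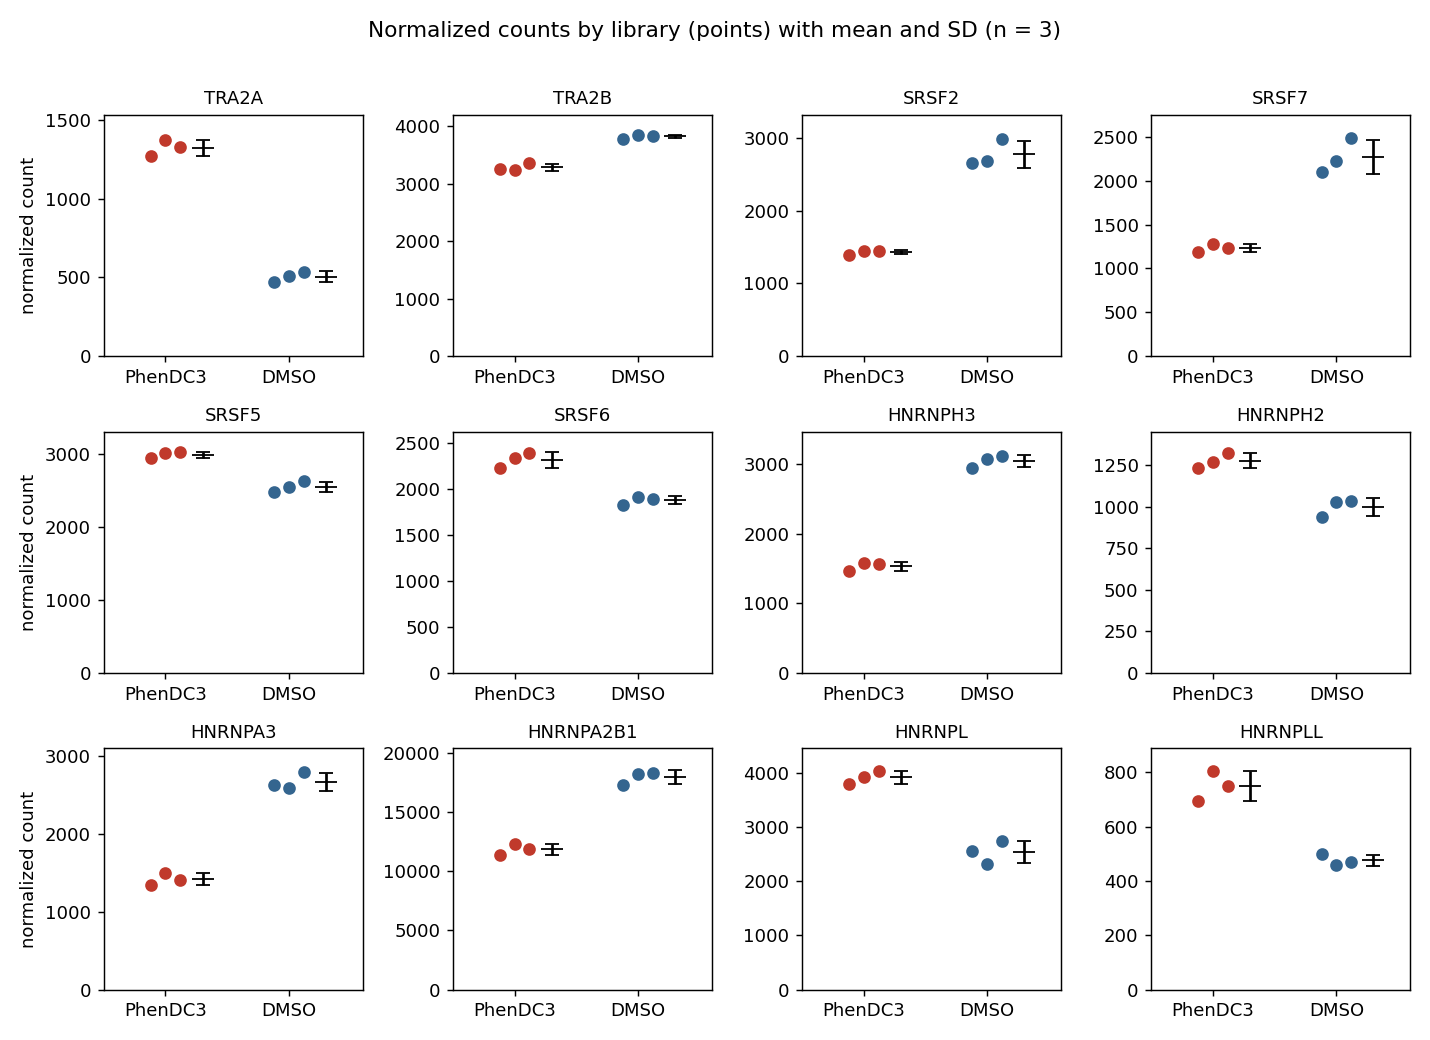
Normalized count (y axis, from 0) of 12 genes in each PhenDC3 library (red) and each DMSO library (blue), with the mean and SD of 3 libraries in black. TRA2A, SRSF5, SRSF6, HNRNPH2, HNRNPL and HNRNPLL are higher in all PhenDC3 libraries, and TRA2B, SRSF2, SRSF7, HNRNPH3, HNRNPA3 and HNRNPA2B1 are lower.

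SR protein genes with the largest falls were SRSF2, SRSF7 and SRSF3. SRSF2 (ENSG00000161547, chromosome 17), a nuclear speckle protein that binds exonic enhancers, had 1395, 1451 and 1451 normalized counts in the PhenDC3 libraries, against 2658, 2687 and 2993 in the DMSO libraries. The PhenDC3 libraries hardly differed among themselves, at 0.515 of the DMSO mean (limma, log2 fold change -0.95, SE 0.06, adjusted p = 1.2e-10). SRSF7, which carries a zinc knuckle beside its RNA-binding domain, had 1186, 1277 and 1229 normalized counts in the PhenDC3 libraries, against 2101, 2222 and 2484 in the DMSO libraries, and fell to 0.542 (log2 fold change -0.88, SE 0.07, adjusted p = 1.25e-09). SRSF3, its smaller relative, known also as an adaptor for mRNA export, had 2434, 2468 and 2637 normalized counts in the PhenDC3 libraries, against 3592, 3623 and 3937 in the DMSO libraries, a fall to 0.676 (log2 fold change -0.56, SE 0.06, adjusted p = 1.46e-07). In all of these genes DMSO replicate 3 was the highest DMSO library, and the groups were separate with or without it.

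Smaller falls were seen in the other SR protein genes of this direction. SRSF10, which represses splicing when dephosphorylated, had 1178, 1252 and 1282 normalized counts in the PhenDC3 libraries, against 1649.9, 1684 and 1626 in the DMSO libraries, and fell to 0.748 (limma, adjusted p = 1.09e-05). SRSF1, the founding member of the family, had 3165, 3393 and 3301 normalized counts in the PhenDC3 libraries, against 4192, 4291 and 4325 in the DMSO libraries. It was the most abundant SR transcript by count in both groups and fell to 0.770 (adjusted p = 1.13e-05). SRSF4 had 1159.8, 971 and 1022 normalized counts in the PhenDC3 libraries, against 1233, 1267 and 1311 in the DMSO libraries, a fall to 0.827 (adjusted p = 0.00274). SRSF9, the closest relative of SRSF1, had 2179.96, 2187 and 2355 normalized counts in the PhenDC3 libraries, against 2351, 2442 and 2783 in the DMSO libraries. Here the groups overlapped, and the fall to 0.887 (adjusted p = 0.0397) did not pass without PhenDC3 replicate 1 (adjusted p = 0.119), PhenDC3 replicate 2 (adjusted p = 0.118) or DMSO replicate 3 (adjusted p = 0.123), nor in edgeR (adjusted p = 0.0515).

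SRSF6, SRSF5 and SRSF11 rose, all by less than 1.5-fold. SRSF6 (ENSG00000124193, chromosome 20) had 2226, 2336 and 2394 normalized counts in the PhenDC3 libraries, against 1828, 1911 and 1895 in the DMSO libraries, a 1.23-fold rise (limma, log2 fold change 0.30, SE 0.06, adjusted p = 0.000237). SRSF5, which like SRSF6 and SRSF4 has a pair of RNA-binding domains, had 2949, 3013 and 3027 normalized counts in the PhenDC3 libraries, against 2483, 2547 and 2627 in the DMSO libraries, or 1.17-fold more (adjusted p = 0.00192). SRSF11, a divergent member of the family, had 2436, 2641 and 2482 normalized counts in the PhenDC3 libraries, against 2196, 2248 and 2167 in the DMSO libraries. Its 1.14-fold rise (adjusted p = 0.00976) did not pass without PhenDC3 replicate 2 (adjusted p = 0.0567). The PhenDC3 and DMSO libraries were separate for each of these genes. These 3 rises are of the size of the shift between the size factor and total reads as the scale. With total reads the log2 fold changes were 0.14, 0.07 and 0.03 for SRSF6, SRSF5 and SRSF11, and none passed. With reads outside the mitochondrial genome as the scale 3 SR protein genes were called higher, as in edgeR and DESeq2.

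The largest change of all was a rise of TRA2A (ENSG00000164548, chromosome 7). TRA2A and TRA2B are the human relatives of the Drosophila sex determination regulator transformer-2, and bind GAA-rich exonic enhancers. TRA2A had 1269.9, 1373 and 1326 normalized counts in the PhenDC3 libraries, against 471, 509 and 536 in the DMSO libraries. No library of one group came near the other, and the mean was 2.62-fold higher (limma, log2 fold change 1.39, SE 0.07, adjusted p = 2.67e-12). TRA2B went the other way, with 3256, 3228 and 3356 normalized counts in the PhenDC3 libraries, against 3779, 3842 and 3833 in the DMSO libraries, a fall to 0.859 (log2 fold change -0.22, SE 0.06, adjusted p = 0.0024). RBM39, a homologue of the splicing factor U2AF2 and the target of sulfonamides that lead to its breakdown, had 3271, 3588 and 3392 normalized counts in the PhenDC3 libraries, against 2743, 2773 and 2607 in the DMSO libraries, and rose 1.26-fold (adjusted p = 8.01e-05).

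The PTBP genes encode proteins that bind pyrimidine tracts and repress exons, and PTBP1 is known to hold down PTBP2 outside neurons. PTBP2 had 139.7, 164 and 159 normalized counts in the PhenDC3 libraries, against 198, 219.6 and 201 in the DMSO libraries, a fall to 0.748 (limma, adjusted p = 0.00216). PTBP1 had 5764, 5611 and 5672 normalized counts in the PhenDC3 libraries, against 5004, 4978 and 5425 in the DMSO libraries. The groups did not overlap but were close, at 1.11-fold (adjusted p = 0.0352), and the call was lost when any library other than DMSO replicate 3 was left out (adjusted p = 0.0624 to 0.138). Scaled by total reads, PTBP1 was at -0.019 on the log2 scale, the opposite sign. PTBP3 had 1349, 1609 and 1425 normalized counts in the PhenDC3 libraries, against 1844, 1786 and 1526 in the DMSO libraries. Here the groups overlapped, and the fall to 0.850 (adjusted p = 0.0156) did not pass without PhenDC3 replicate 1 or 3 or DMSO replicate 1 or 2 (adjusted p = 0.0627 to 0.0971).

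The remaining RBM genes did not pass. RBM3, a cold-induced RNA-binding protein, ranged over 1373, 1493 and 1517 normalized counts in PhenDC3 and 1300.5, 1463 and 1726 in DMSO libraries. Its spread was wide among DMSO libraries, and the 95% interval of its log2 fold change was -0.20 to 0.15 (limma). For RBM5 and RBM10, related regulators of exons in apoptosis and proliferation genes, the intervals were -0.17 to 0.12 and -0.23 to 0.08. For RBM25, which acts on the choice of BCL2L1 isoforms, the interval was -0.12 to 0.15. Falls or rises within these intervals could not be told from no change with 3 libraries a group. When libraries were scaled by total reads, RBM10 (log2 fold change -0.24, limma adjusted p = 0.00925) and RBM5 (-0.19, adjusted p = 0.0217) were called lower. RBM25 was too (-0.15, adjusted p = 0.0448), and RBM3 was not (adjusted p = 0.0527).

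Ratios between related genes were taken within each library, where the scaling of libraries cannot change them. In 13 of 15 pairs compared the ratio in all PhenDC3 libraries lay on one side of that in all DMSO libraries. Single genes were separate in 64.1% of all genes tested and 77.2% of the abundant coding genes, and the share over other gene pairs was not computed, so nothing particular to relatives is read from the count. For each of these 13 the exact permutation test gave p = 0.1, the smallest that 3 against 3 libraries allow (two-sided, 0.115 after Benjamini-Hochberg adjustment over the 15), so no pair passed and none could have. The pairs were chosen with earlier results known, and their ratios are a description. The ratio of TRA2A to TRA2B was 0.390, 0.425 and 0.395 in the PhenDC3 libraries, against 0.125, 0.132 and 0.140 in the DMSO libraries. That is a difference between the changes of the pair of 1.61 on the log2 scale (SE 0.06). The ratio of HNRNPH3 to HNRNPH1 was 0.302, 0.323 and 0.326 in the PhenDC3 libraries, against 0.548, 0.547 and 0.569 in the DMSO libraries, and the ratio of HNRNPH2 to HNRNPH1 was 0.256, 0.259 and 0.277 in the PhenDC3 libraries, against 0.175, 0.183 and 0.189 in the DMSO libraries. Relative to HNRNPH1, the difference between the changes was -0.81 for HNRNPH3 and 0.53 for HNRNPH2 on the log2 scale. The ratio of HNRNPA3 to HNRNPA1 was 0.519, 0.561 and 0.530 in the PhenDC3 libraries, against 0.862, 0.895 and 0.867 in the DMSO libraries. SRSF6 to SRSF4 stood at 1.92, 2.41 and 2.34 in the PhenDC3 libraries, against 1.48, 1.51 and 1.45 in the DMSO libraries, and SRSF7 to SRSF3 at 0.487, 0.517 and 0.466 in the PhenDC3 libraries, against 0.585, 0.613 and 0.631 in the DMSO libraries. In the limma fit of single genes SRSF6 rose and SRSF4 fell, while SRSF7 and SRSF3 both fell. In the other 7 pairs with separate groups the difference lay between -0.57 for PTBP2 to PTBP1 and 0.51 for SRSF5 to SRSF4 on the log2 scale. The pairs whose groups overlapped were HNRNPLL to HNRNPL, with a difference of 0.03 on the log2 scale (SE 0.08) and an exact p of 0.8, and PTBP3 to PTBP1, with -0.38 on the log2 scale (SE 0.15) and an exact p of 0.2.

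**Figure D3:**
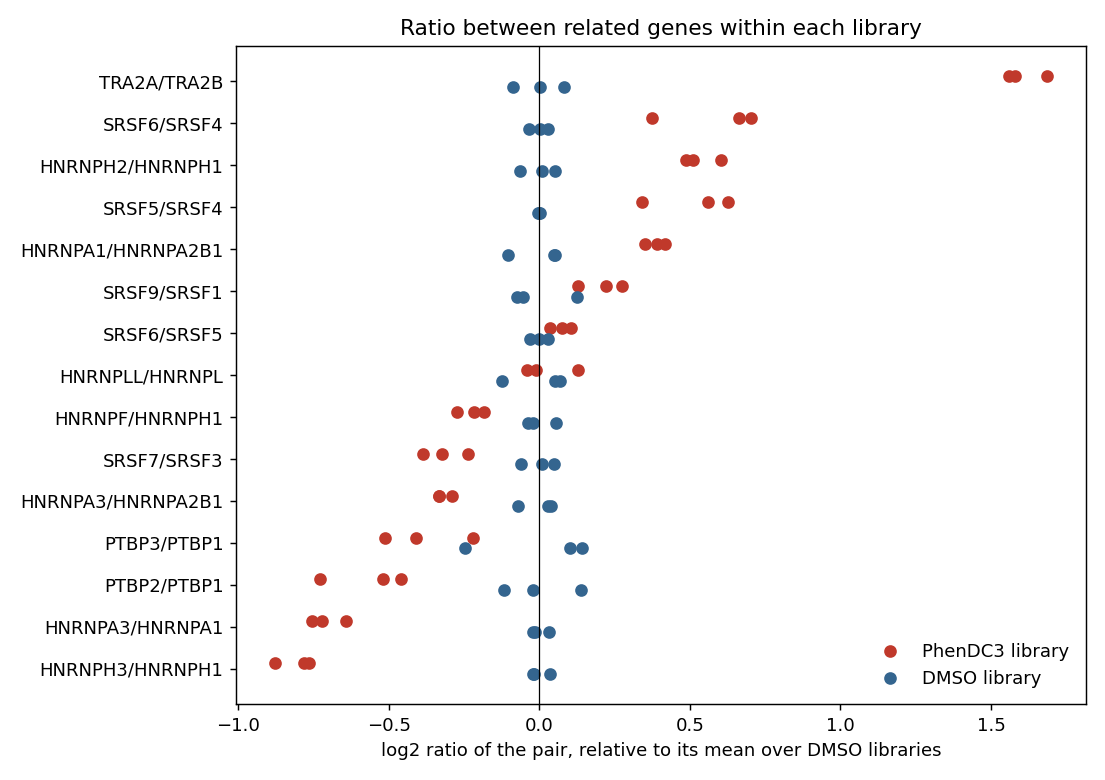
Log2 ratio between 2 related genes in each library (x axis), set to 0 at the mean of the DMSO libraries, for 15 pairs (y axis), with PhenDC3 libraries in red and DMSO libraries in blue. TRA2A/TRA2B lies furthest to the right and HNRNPH3/HNRNPH1 furthest to the left, and the groups overlap for HNRNPLL/HNRNPL and PTBP3/PTBP1.

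Set against each other, both families were lower to a similar degree. The 22 hnRNP genes summed to 68891 ± 1471 normalized counts in PhenDC3 cells and 86570.3 ± 2497 in DMSO cells. The 10 SR protein genes summed to 20827 ± 459 in PhenDC3 cells and 25118 ± 948 in DMSO cells. As shares of normalized counts outside the mitochondrial genome, hnRNP genes made up 0.739% ± 0.021 in PhenDC3 and 0.916% ± 0.024 in DMSO cells, and SR protein genes 0.223% ± 0.0064 in PhenDC3 and 0.266% ± 0.0093 in DMSO cells. The ratio of the hnRNP sum to the SR sum was 3.31, 3.34 and 3.27 in the PhenDC3 libraries, against 3.46, 3.47 and 3.41 in the DMSO libraries. The groups did not overlap, and the difference was -0.06 on the log2 scale, small beside the changes of single members. As these genes were chosen with earlier results known, the sums and their ratio are given with no test. HNRNPA2B1 contributed more to the hnRNP sum than any other gene.

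**Figure D4:**
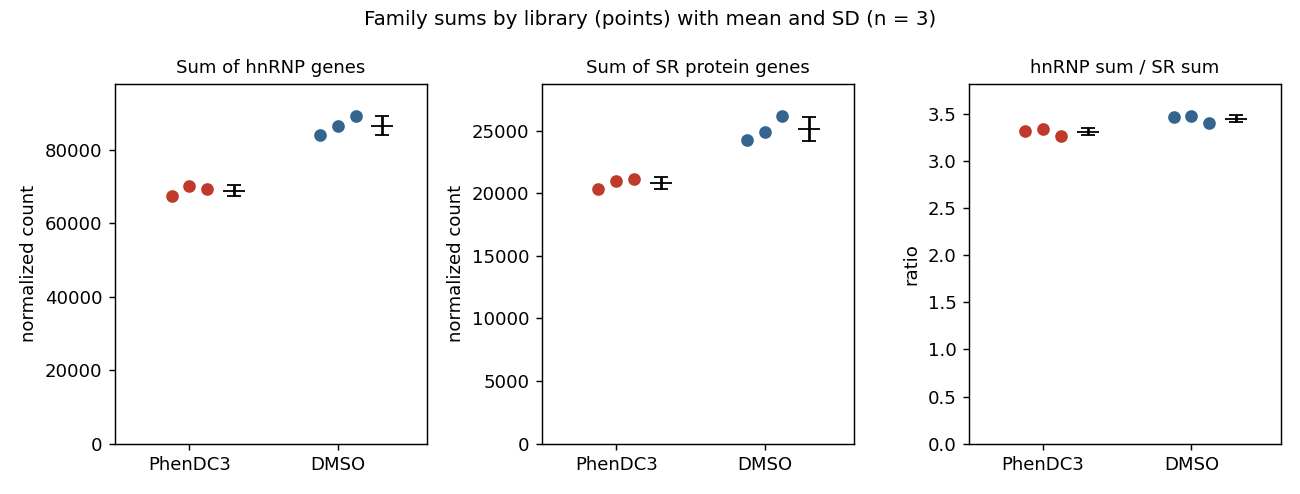
Summed normalized counts of the hnRNP genes and of the SR protein genes, and the ratio of these sums (y axes, from 0), in each PhenDC3 library (red) and DMSO library (blue), with mean and SD of 3 libraries. Both sums are lower in every PhenDC3 library, and the ratio is 3.31 ± 0.037 in PhenDC3 and 3.45 ± 0.035 in DMSO cells.

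Per kilobase of the longest annotated coding transcript, the levels were spread widely. HNRNPA2B1 was at 3236 in PhenDC3 cells and 4894 in DMSO cells, in normalized counts per kilobase. HNRNPK was at 1873 in PhenDC3 cells and 2355 in DMSO cells, SRSF9 at 1866 in PhenDC3 cells and 2103 in DMSO cells and HNRNPD at 1434 in PhenDC3 cells and 1832 in DMSO cells. SRSF9 was thus the highest SR transcript per length, though SRSF1 was the highest by count, at 1054 in PhenDC3 cells and 1369.7 in DMSO cells per kilobase. PTBP2 was at 12.8 in PhenDC3 cells and 17.1 in DMSO cells, the lowest per length of all members tested. TRA2A was far below TRA2B in DMSO cells and about at the level of SRSF3 in PhenDC3 cells, with 594 in PhenDC3 cells and 227 in DMSO cells for TRA2A, 1111 in PhenDC3 cells and 1293 in DMSO cells for TRA2B and 595 in PhenDC3 cells and 881 in DMSO cells for SRSF3, all per kilobase. Lengths are of GENCODE release 29 and may differ from those of the authors' annotation. Which transcript of a gene was expressed was not measured, so rankings between genes per kilobase depend on the length chosen.

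Some members share exonic bases with a gene on the opposite strand in GENCODE release 29, and the strand setting of the authors' counting is not known here. SRSF2 shares 1106 such bases with MFSD11, which was at 171 normalized counts in PhenDC3 and 202 in DMSO cells. SRSF9 shares 1729 with GATC, at 324 in PhenDC3 and 263 in DMSO cells, and HNRNPA2B1 shares 368 with CBX3, at 1849.6 in PhenDC3 and 2476 in DMSO cells. HNRNPU shares 3502 with COX20, at 77.0 in PhenDC3 and 83.5 in DMSO cells, and RBM10 shares 636 with NDUFB11, at 389 in PhenDC3 and 466 in DMSO cells. On the same strand, HNRNPUL2 shares 2391 bases with the readthrough gene HNRNPUL2-BSCL2, at 18.5 in PhenDC3 and 11.1 in DMSO cells. In these cases the partner was below the member in both groups. HNRNPUL1 shares 215 bases with TGFB1 on the opposite strand, at 2779 in PhenDC3 and 2190.5 in DMSO cells, and RBM5 shares 456 with RBM6 on its own strand, at 1198 in PhenDC3 and 1021 in DMSO cells. TGFB1 was of the order of HNRNPUL1, and RBM6 was above RBM5. Same-strand partners without a value in the deposited table also occur. SRSF1 shares 1890 of its 3340 exonic bases with AC015813.2. HNRNPH2 shares 362 of 2223 with RPL36A-HNRNPH2, and HNRNPL shares 561 of 6821 with AC008982.1. The part of these partners in the counts was not tested, and further overlaps of other members are not reported here. No exonic overlap was listed for TRA2A, SRSF7, SRSF3 or HNRNPC.

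The annotation also records which members have transcripts marked for nonsense-mediated decay, the route by which SR genes are known to limit themselves. All 10 SR protein genes had at least 1 such transcript, as did 13 of 21 tested hnRNP genes and 6 of the 10 TRA2, RBM and PTBP genes, against 43.3% of the protein-coding genes tested. The share among the abundant coding genes was not computed, so nothing particular to these families is read from the counts. The table holds 1 value per gene and library, so changes in this class of transcript were not measured. Of 13 genes of the decay pathway itself that were tested, 7 rose in PhenDC3 cells and 2 fell. The share called in either direction, 69.2%, lay between the 59.6% of all genes and the 74.1% of abundant coding genes. By direction, 29.2% of all genes tested and 35.6% of the abundant coding genes were higher. The median log2 fold change of these 13 was 0.35, against -0.02 over all genes tested and -0.01 over abundant coding genes. The list was not tested as a set. UPF2 averaged 1462 ± 80.8 in PhenDC3 cells and 671 ± 66.0 in DMSO cells, a 2.18-fold rise, and UPF1, the helicase at the centre of the pathway, 3045 ± 161 in PhenDC3 cells and 1473 ± 29.2 in DMSO cells, or 2.07-fold (limma, adjusted p = 1.54e-10 and 1.77e-11).

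Lists of core spliceosome genes are described by their counts, to be read against the 59.6% of all genes and 74.1% of abundant coding genes that were called. Of 15 genes in a list for U1 and the Sm core, which also holds the U2 proteins SNRPA1 and SNRPB2, 12 fell and none rose, so that 80.0% were called, with a median log2 fold change of -0.41, against -0.02 over all genes tested. SNRPF averaged 273 ± 34.2 in PhenDC3 cells and 531 ± 78.5 in DMSO cells, a fall to 0.513 of the DMSO mean, while SNRPG fell to 0.525 and SNRPA, a U1 protein, to 0.621. In the list for U2 and branch site recognition 8 of 15 fell and 2 rose, and its share called, 66.7%, lay between those backgrounds. DDX46, a helicase that acts on the U2 particle, averaged 768 ± 36.8 in PhenDC3 cells and 2480.4 ± 101 in DMSO cells and fell to 0.310 (limma, adjusted p = 2.92e-14), while U2AF2, which binds the pyrimidine tract, rose 1.81-fold and SF1, which binds the branch point, 1.43-fold. In the tri-snRNP and catalysis list 7 of 15 fell and none rose, a share called of 46.7%, below both backgrounds. Those that fell include SNRNP40 at 0.595, PRPF19 at 0.738 and PRPF4 at 0.780 of the DMSO level.

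Genes that modify or carry SR and hnRNP proteins were divided. Of 12 kinase and phosphatase genes 4 rose and 3 fell, a share called (58.3%) near that of all genes, with DYRK1A 1.36-fold higher, SRPK1, a main SR protein kinase, at 0.820 and PRPF4B at 0.782. Of 7 genes for transport and arginine methylation 4 rose and 2 fell, a share called of 85.7%. The backgrounds were 59.6% of all genes and 74.1% of abundant coding genes. CARM1, a methyltransferase, rose 1.81-fold, TNPO1, which imports hnRNP A1 into the nucleus, 1.55-fold, and NXF1, the mRNA export receptor, 1.54-fold. Among 22 other splicing regulators tested 8 rose and 10 fell, a share called of 81.8%. BCLAF1 fell to 0.468 and RBMX to 0.499, whereas SRRM2, a scaffold of nuclear speckles, rose 1.68-fold. The lists went in different directions, and none was tested as a list.

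**Figure D5:**
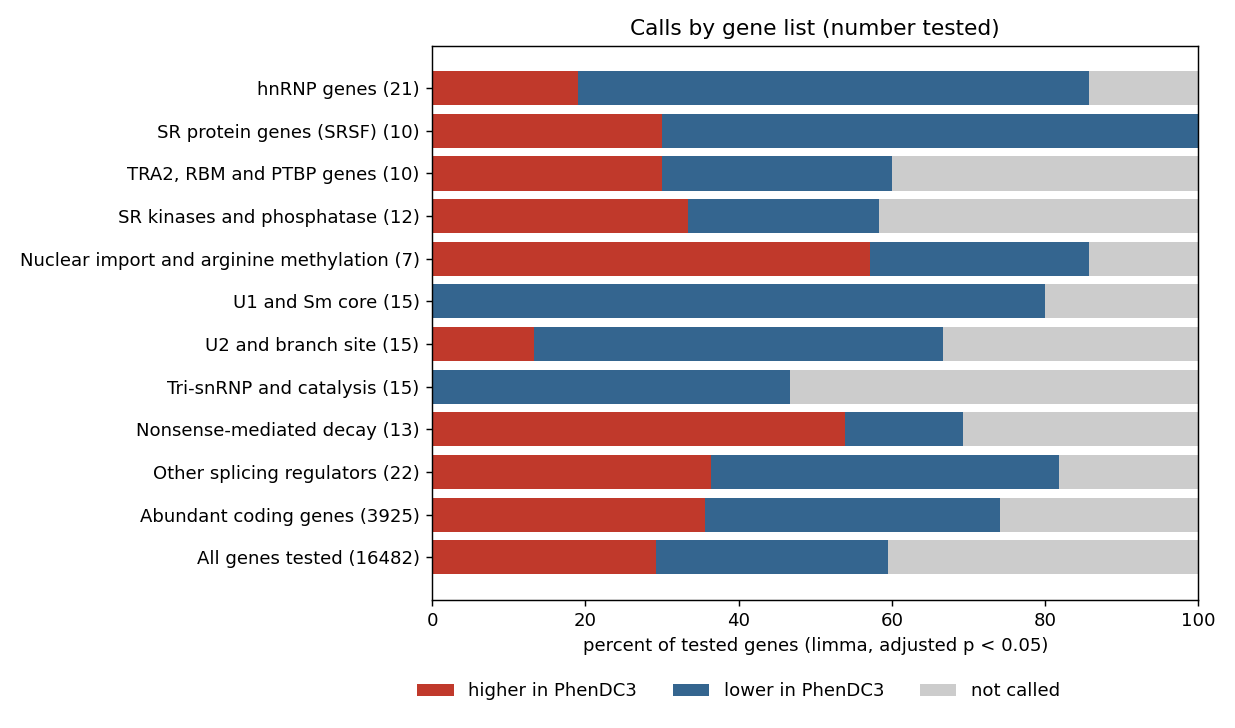
Percent of tested genes (x axis) higher in PhenDC3 cells (red), lower (blue) or not called (grey) in limma, for the 3 sets of members, 7 lists of splicing genes, abundant protein-coding genes and all genes, with the number tested in brackets. Falls outnumber rises in the hnRNP, SR protein, U1, U2, tri-snRNP and other regulator rows, and slightly among abundant coding genes and all genes. Rises outnumber falls in the decay, kinase and phosphatase, and import and methylation rows. The TRA2, RBM and PTBP row is even, and 59.6% of all genes tested were called.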

How the data were processed

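RNA was measured in 6 libraries of HT-1080 cells, grouped by their labels. Tools named in the submitters' processing notes, with no role or order, are STAR 2.7, TopHat2 2.0.11, featureCounts, Cufflinks 2.2.1, Cuffdiff, CASAVA and DESeq2 1.18.1, and the build named is hg19. Per the labels, a stranded kit was used. The deposited signal is reads per gene divided by a size factor for each library, as its values show: all were whole multiples of 1 step (relative tolerance 1e-06), so whole reads were recovered. The authors' log2 fold change (PhenDC3 over DMSO) and the authors' adjusted p-value served only as an alternative. No label states that replicates were separate cultures. The p-values therefore cover the spread between libraries, which may be technical.

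The main test was limma 3.58.1 (R 4.3.3) on log2(value + 1), with a variance trend and no replicate block. It covered the 16482 genes whose normalized counts averaged 5 or more, with Benjamini-Hochberg adjustment over all of them and a threshold of 0.05. The pseudocount understates changes of low genes, and folds are ratios of group means. Alternatives included edgeR 4.0.16 and DESeq2 1.42.0 on recovered reads, other scalings, pseudocounts and filters, and leaving out each library. The fit was also tested on simulated reads. There no library stood apart as DMSO replicate 3 does here, so that test does not give the error rate in these data. Members and lists were chosen with earlier results of these data known, and the set of abundant coding genes was chosen after seeing the data, so lists are described by counts and medians. Values in each library are given for the 4 largest rises and falls of each set, the paralog groups and the most abundant member. Up to 3 called genes of each pathway list are named. A gene that this takes is not reported here. Gene types, overlaps and lengths came from GENCODE release 29 (GRCh38) and promoters from RefSeq. RBM8A and TAF15 were not analysed here. Tables and figures used pandas 2.3.3, numpy 2.4.6 and matplotlib 3.10.9 in Python 3.11.15.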

Additional observations from a re-analysis of the deposited data

How the results depend on the processing

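The number of genes called was 9818 and stayed within 1.5 times under all alternatives run, as did the counts of hnRNP, SR protein and TRA2, RBM and PTBP genes called. When 1 library was left out the counts were 8937 to 9646 genes in all, 17 to 18 hnRNP genes, 8 to 10 SR protein genes and 4 to 6 of the third set. The median log2 change then ranged over -0.34 to -0.29 for hnRNP genes and -0.35 to -0.31 for SR protein genes, and the difference of the log2 ratio of family sums over -0.07 to -0.05. Scaling by total reads moved the medians to -0.50 for hnRNP and -0.49 for SR protein genes, with all genes at -0.18. Under it RBM25 (-0.15, adjusted p = 0.0448) and PTBP1 (-0.019) changed sign, as did HNRNPUL2 (-0.061), which was not called on either scale, and 8 of the third set were called, 2 higher and 6 lower, in place of 3 and 3. Scaling by reads outside the mitochondrial genome gave medians of -0.31 for both families. With the replicate number as a replicate block 10155 genes, 18 hnRNP genes, 10 SR protein genes and 6 of the third set were called. Residuals of same-numbered libraries correlated at 0.00788, 0.0712 and 0.027, so the numbers were not taken as pairs. The deposited table called 8418 genes, with 18, 9 and 6 members. The ratio of family sums has no value in edgeR, DESeq2 or the deposited table and does not depend on the library scale, the pseudocount or the filter. Of values for single members, 231 of 246 kept their call with 1 library fewer, and 511 of 533 under the remaining settings, where the sign of a member that was not called is left aside. With 1 library fewer, RBM3, RBM5 and RBM25, not called in any such fit, changed sign in some.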
